A study of Mus musculus with 4 samples.

Results

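The S100 calcium-binding family was followed across 82 single cells sorted from the mouse forebrain. Members were all rows of the count table named S100a with a number, or S100b, which gave 7 of 15305 rows: S100a1, S100a4, S100a6, S100a10, S100a13, S100a16 and S100b. S100a1 was the lead member. The cells came from mice of the Penk-Cre Ai9 line, labelled WT for genotype, in which cells that have expressed Cre from the Penk gene carry the red reporter tdTomato. The labels give the tissue as subventricular zone and striatum, and name 4 samples: neuroblasts from dataset A and from dataset B, and likewise neural stem cells in quiescence. All cells were reporter-positive. Dataset A (41 cells, 1 plate) was also sorted as negative for CD11b, a microglial surface protein, and dataset B (41 cells, 4 plates) was not. Age, sex and the number of animals are not given in the sources used here. The reporter marks any cell with a history of Penk-driven Cre, so it selects no single cell type.

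The table ties each cell to a dataset, a plate and a well but to no labelled cell type, so cells were placed by 2 marker genes. Enpp2-rich cells had 1% or more of their reads on Enpp2, which encodes the secreted enzyme autotaxin, and they numbered 14 in dataset A and 16 in dataset B. Sox11 cells had 10 or more reads of Sox11, a transcription factor of newborn neurons, and they numbered 16 and 25. In dataset A, 2 cells met both rules and were kept apart, and 9 met neither (the rest). Dataset B had 0 cells of either kind. Cells could be tied to a dataset but to no replicate sample, and cells are not replicates, so no p-value is given. Shares of cells carry exact 95% binomial (Clopper-Pearson) intervals that cover counting error only, and each comparison is shown in both datasets.

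S100 proteins are small EF-hand proteins that mostly work as dimers. Binding of calcium turns out a hydrophobic face that grips partner proteins, so they act as calcium sensors more than as calcium pumps or channels. Most S100 genes of the mouse lie in a cluster on chromosome 3, and S100b lies on chromosome 10. In brain the best known member is S100b, a marker of astrocytes and ependymal cells.

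S100a1 was the family member most often found in Enpp2-rich cells, with 10 or more reads in 11 of 14 cells of dataset A and 14 of 16 of dataset B, against 1 of 16 and 0 of 25 Sox11 cells. S100a10 reached 10 reads in 4 of 16 and 11 of 25 Sox11 cells, against 0 of 30 Enpp2-rich cells. S100a16 was found in 5 of 16 and 5 of 25 Sox11 cells and in 1 of 30 Enpp2-rich cells. S100a13 was found in 6 of 16 Enpp2-rich cells of dataset B and in 0 of 14 of dataset A. S100a6 and S100b reached 10 reads in 3 and 2 of the 82 cells, and S100a4 had 1 read in all.

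**Figure D1:**
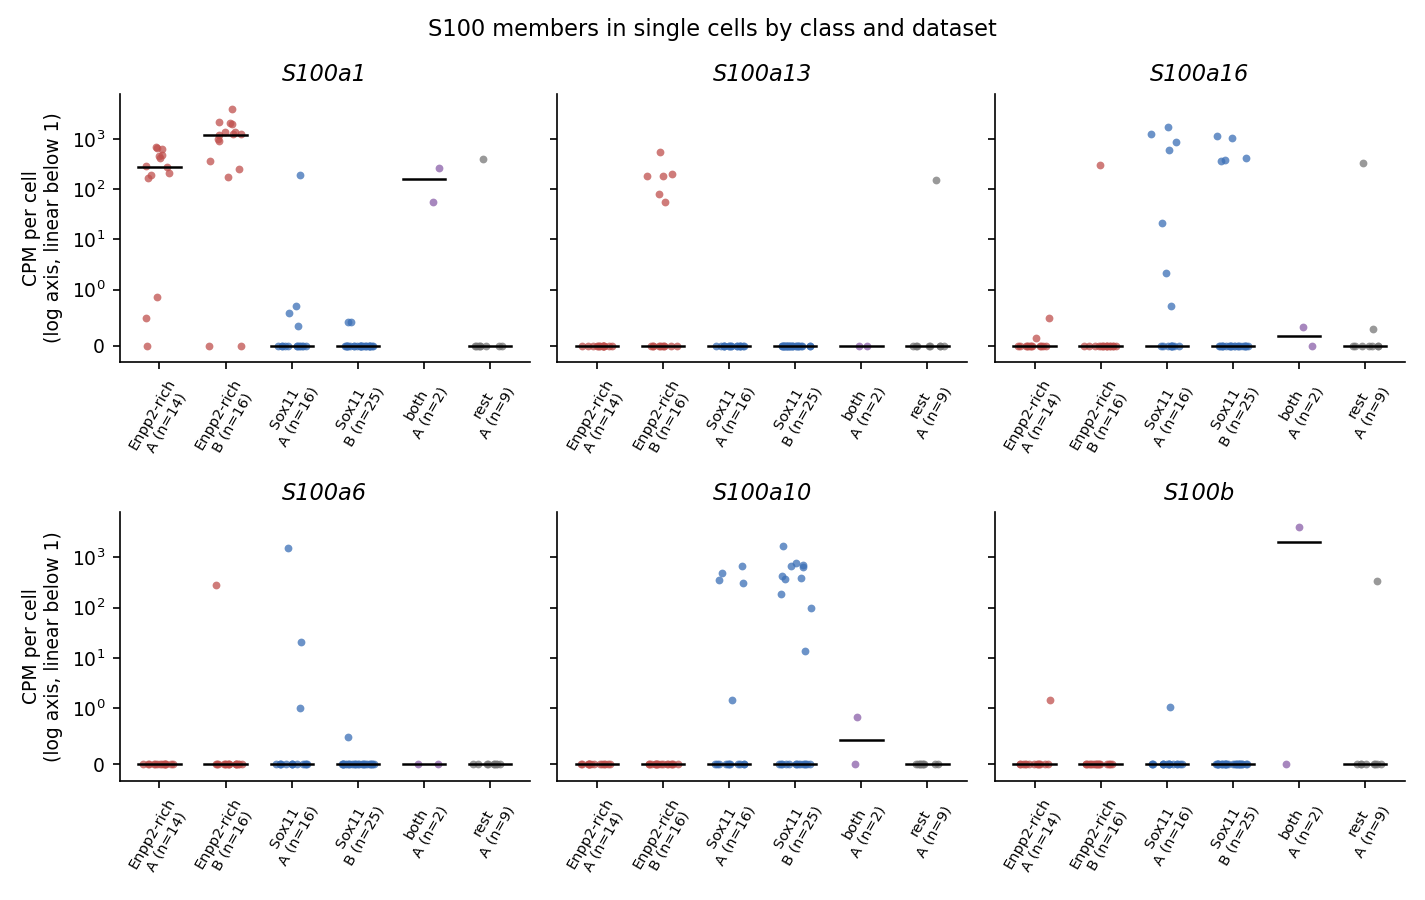
Level of 6 members in each cell, in CPM (reads per 1000000 reads of the cell, log axis that is linear below 1), by class and dataset; each point is a cell and each bar the median of its group. S100a1 points sit above 100 CPM in 25 of 30 Enpp2-rich cells, while S100a10 points above 10 CPM occur in Sox11 cells only.

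Reads were close to all or none. Of the 574 values (7 members in 82 cells), 486 were 0, 20 lay between 1 and 4 reads, 4 between 10 and 99, and 64 at 100 or more. The lowest value at or past the minimum of 10 reads was 11. Over all 5793 rows that had 10 or more reads in at least 5 cells, called described rows here, 77.0% of values were 0, 5.05% were 1 to 9 reads, 3.02% were 10 to 99 and 14.9% were 100 or more. Libraries held 530630 to 7765650 reads, with a median of 1942926 in dataset A and 2135576 in dataset B. No 2 cells had identical counts.

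The choroid plexus list (16 genes) holds Enpp2 and the neuroblast list (15 genes) holds Sox11, so the classes were checked against the lists without these, and without Ttr, which takes a large share of reads. Of the other 14 choroid plexus genes, Enpp2-rich cells held 8 to 12 in dataset A and 3 to 10 in dataset B at 10 or more reads. Sox11 cells held 0 to 11 (median 0) in dataset A, where the ranges overlapped, and 0 to 1 (median 0) in dataset B. Enpp2-rich cells held 0 or 1 of the other 14 neuroblast genes. Sox11 cells held 0 to 12 of these in dataset A (median 8) and 5 to 13 in dataset B (median 10). The rest held a median of 7 of 13 astroglial genes (also carried by quiescent stem cells), with a range of 0 to 12. The summed level of the 14 choroid plexus genes ran from 2981 to 26568 CPM in Enpp2-rich cells of dataset A and from 5394 to 22340 CPM in those of dataset B. In Sox11 cells its median was 1.79 and 0 CPM, with highest cells of 4369 and 32.9 CPM. Ependymal genes numbered at most 4 of 7 in an Enpp2-rich cell and 2 of 7 in a Sox11 cell. Their summed level had medians of 43.4 and 594 CPM in Enpp2-rich cells of datasets A and B, and of 0 and 0 in Sox11 cells. For 4 meningeal fibroblast genes the medians were 150 and 1152 CPM in Enpp2-rich cells, and 0 and 0 in Sox11 cells. Of these genes, Col1a1 and Apod had 0 reads in every Enpp2-rich cell. Igfbp2, also on that list, was detected in 71.4% and 75% of Enpp2-rich cells and in 0% of Sox11 cells. The part of these lists in the S100 values was not tested. None of the labels names choroid plexus, and the classes keep the names of their marker genes.

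S100a1 and S100a13 cannot be read apart without their positions. In the GENCODE M39 annotation (build GRCm39), S100a1 (ENSMUSG00000044080.11) spans chr3:90418340-90421848 on the minus strand, and S100a13 (ENSMUSG00000042312.13) spans chr3:90416091-90431912 on the plus strand, so that S100a1 lies wholly within S100a13. Of the 2895 exon bases of S100a1, 2563 (88.5%) also belong to an exon of some S100a13 transcript on the other strand. Whether reads were counted by strand is not given in the sources used here, and reads of the 2 genes may have been exchanged or dropped where exons overlap. The submitters' processing notes name both GRCm39 and mm10, without a role, so the annotation behind the counts may differ from this one. The other members on chromosome 3 are S100a16 at chr3:90444172-90450462, S100a4 at chr3:90511074-90513354, S100a6 at chr3:90520140-90535843 and S100a10 at chr3:93462213-93474510, all on the plus strand of GRCm39. S100b is at chr10:76085090-76097159. No exon base of S100a16, S100a6, S100a10 or S100b was shared with another gene of that annotation.

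In the RefSeq promoter table (build GRCm38.p6, 6 of the 7 members matched) S100a1 and S100a13 start head to head, with 104 bases between their starts. That stretch matched GRCm39 once, at chr3:90421638-90421741, and the longer S100a1 transcripts of GENCODE run through it. It is shown because both RefSeq starts flank it. The 30 bases directly before the RefSeq start of S100a1 (chr3:90421638-90421667, GRCm39, minus strand, 5′ to 3′) follow, with a match to the CACCC box, read on the other strand, in capitals:
S100a1 start: tagccctttGGGTGtcgtttgtgaaggggt
Both strands of the 104 bases were searched for 4 short motifs. The CACCC box (CACCC) was matched 1 time, and 28.2% of the 32851 RefSeq promoters had it in the 104 bases directly before their start. The TATA box (TATAAA), the GC box (GGGCGG) and the CCAAT box (CCAAT) were matched 0 times, against 5.69%, 25.1% and 19.4% of promoters. A match describes letters in this window and is no evidence of binding.

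S100a1, known from heart and muscle as a partner of the ryanodine receptor and of the calcium pump of the endoplasmic reticulum, held the most reads of the family, 57927 over all cells. It reached 10 reads in 78.6% of Enpp2-rich cells of dataset A (interval 49.2% to 95.3%) and 87.5% of dataset B (61.7% to 98.4%). In Sox11 cells the shares were 6.25% (0.158% to 30.2%) and 0 of 25, which allows up to 13.7%. Over Enpp2-rich cells the mean level was 318 CPM in dataset A (SD over 14 cells 243) and 1209 CPM in dataset B (SD over 16 cells 1030). Sox11 cells had means of 12 and 0.0340 CPM. With Ttr and Enpp2 left out of each cell's total, the means were 551 and 1525 CPM in Enpp2-rich cells of datasets A and B. In Sox11 cells they were 57.5 and 0.0341 CPM. Within the 3 plates of dataset B that held both classes, S100a1 was in 2 of 2 Enpp2-rich and 0 of 12 Sox11 cells of plate P1, in 4 of 4 and 0 of 3 of plate P3, and in 8 of 10 and 0 of 4 of plate PL4.

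The Sox11 mean of dataset A came from 1 cell. That cell had 749 S100a1 reads, and without it the mean was 0.109 CPM. It lay just under the Enpp2 rule, with 0.999% of its reads on Enpp2, 78.2% on Ttr, 13 of 16 choroid plexus genes and 9 of 15 neuroblast genes. The cells next to the Enpp2 rule on the inside, at 1.25%, 1.93% and 2.28% of reads, had 2925, 66 and 1463 S100a1 reads, and those next outside it, at 0.424% and 0.292%, had 1 and 0.

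Detected S100a1 was at 169 to 699 CPM in the 11 Enpp2-rich cells of dataset A (median 411) and at 172 to 4001 CPM in the 14 of dataset B (median 1239). The ranges overlapped, and 11 of the 14 dataset B cells lay above the highest cell of dataset A. The Ttr share of Enpp2-rich cells moved with the dataset, from a median of 19.3% of reads in A to 6.70% in B, as did the Enpp2 share, from 20.5% to 13.9%. With Ttr and Enpp2 left out of each cell's total, the medians of detected S100a1 were 663 and 1400 CPM, and 7 of 14 dataset B cells lay above the highest cell of dataset A. Other marker lists also differed, with median summed levels in Enpp2-rich cells of A and B of 43.4 and 594 CPM for ependymal genes. The medians were 37.9 and 763 CPM for astroglial, 150 and 1152 CPM for meningeal fibroblast and 91.3 and 682 CPM for striatal projection neuron genes. The 14 choroid plexus genes went the other way, at 15825.3 and 10535.5 CPM. Many genes of the other lists had 0 reads in Enpp2-rich cells of A and B. These were 2 and 7 of 13 astroglial, 2 and 2 of 4 meningeal fibroblast and 5 and 7 of 10 striatal projection neuron genes. The part of these lists in the S100a1 levels was not tested. The CD11b gate, the plates and the dataset cannot be told apart here.

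**Figure D2:**
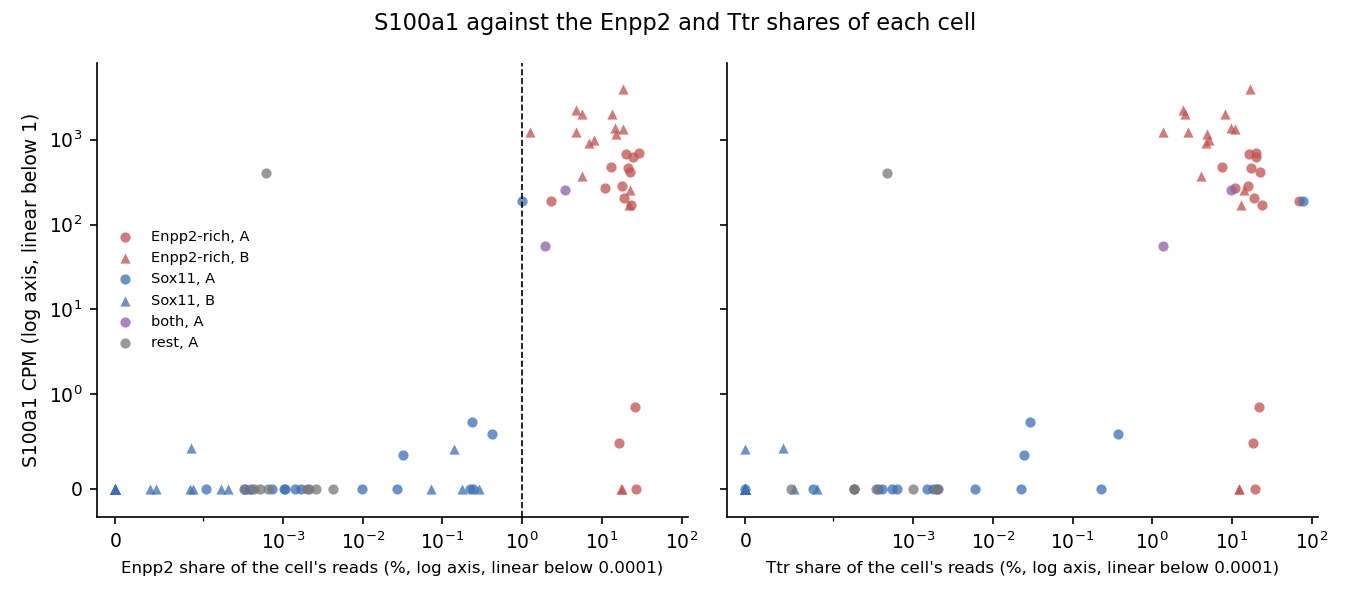
S100a1 level (CPM, log axis linear below 1) against the share of each cell's reads on Enpp2 (left, dashed line at 1%) and Ttr (right), both on log axes that are linear below 0.0001%; colours are classes, circles dataset A and triangles dataset B. Cells with over 100 CPM of S100a1 lie right of the Enpp2 line except for 1 Sox11 cell at 0.999% and 1 cell of the rest.

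Within the 30 Enpp2-rich cells S100a1 was not higher where Enpp2 was higher. Its CPM had a Spearman correlation of -0.42 with the Enpp2 share and -0.57 with the Ttr share, values that contain the shift between datasets. Within dataset A (14 cells) they were 0.08 and -0.28, and within dataset B (16 cells) -0.34 and -0.31. Enpp2 and Ttr are part of the total that CPM divides by. With both left out of it, the values were 0.09 and 0.03 in dataset A, where the sign of the Ttr value turned, and -0.26 and -0.25 in dataset B. Correlations over cells share library depth and total and are given as descriptions.

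S100a1 was missing from 5 Enpp2-rich cells, 3 in dataset A with 0, 1 and 2 reads and 2 in dataset B with 0 reads. Their depth lay within that of the cells with S100a1, at 2059941 to 2683705 reads in A and 2268118 to 2398296 in B. The cells with S100a1 had 1275730 to 7765650 reads in A and 1433325 to 2846661 in B. The 5 cells without it had 11 to 13 and 9 to 10 choroid plexus genes, within the range of the cells with S100a1. Both dataset B cells without S100a1 held another member, 477 reads of S100a13 in one and 645 reads of S100a6 in the other. S100a13 was also in 5 of the 14 dataset B cells with S100a1. The 3 dataset A cells without S100a1 held no member. At least 1 member was held by 16 of 16 Enpp2-rich cells of dataset B and 11 of 14 of dataset A.

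Outside the 2 main classes S100a1 was found in both cells that met both rules (767 and 66 reads) and in 1 of the 9 cells of the rest (846 reads). The latter cell was the only one of the rest with 3 members, with 315 reads of S100a13 and 709 of S100a16 beside S100a1. It had 0 neuroblast genes, 2 of 16 choroid plexus genes and 11 of 13 astroglial genes, led by Slc1a3, Aldoc and Slc1a2.

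The shares were then set beside those of all 5793 described rows. A row was called for a class when its share of cells with 10 or more reads was at least 50 percentage points higher there in each dataset. The call for Enpp2-rich cells was met by 75 rows (1.29%) and that for Sox11 cells by 83 rows (1.43%). Of the 7 members, 4 had enough cells to be described, S100a1, S100a10, S100a13 and S100a16. S100a1 was the 1 member called for Enpp2-rich cells, with differences of 72.3 and 87.5 percentage points in datasets A and B. It ranked 8 of 5793 by the smaller of its 2 differences. Members and classes were chosen with earlier results of these data known. Of the 29 cells with 10 or more reads of S100a1, 25 were Enpp2-rich, so it was described mainly through the class it was called for. The call and the rank of S100a1 are therefore descriptions and no independent test. No member was called for Sox11 cells. At 20 percentage points, a limit chosen after the values were seen, 6.72% of rows were called for Enpp2-rich cells and 8.08% for Sox11 cells, and S100a1 and S100a10 were the members called.

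**Figure D3:**
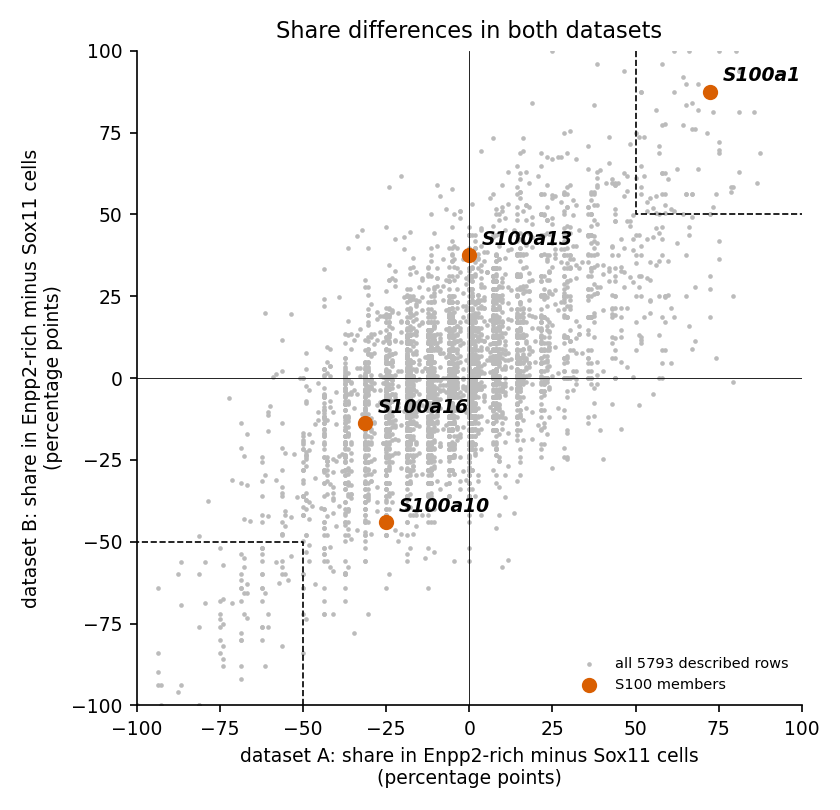
Difference between the shares of Enpp2-rich and Sox11 cells with 10 or more reads (percentage points) in dataset A (x axis) and dataset B (y axis) for all 5793 described rows (grey) and the 4 described members (orange); dashed corners mark 50 percentage points in both datasets. S100a1 lies in the upper corner at 72.3 and 87.5, and S100a10 at -25 and -44 outside the lower one.

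The 10 rows most like S100a1 over the 82 cells, among 3244 rows with 10 or more reads in at least 10 cells, were chosen by Spearman correlation of log2(CPM + 1). They were Chchd10 (0.79), a protein of the mitochondrial intermembrane space; Ptgds (0.79), prostaglandin D synthase; Calml4 (0.77), a calmodulin-like protein; Rbm47 (0.75), an RNA-binding protein; Stk39 (0.74), a kinase of ion cotransporters; Car2 (0.74), a carbonic anhydrase; Kcnj13 (0.74), an inwardly rectifying potassium channel; Ecrg4 (0.74); Ndufa11 (0.72), a subunit of respiratory complex I; and Cryab (0.72), a small heat shock protein. Enpp2 itself ranked 11 (0.72). The 10 rows were detected in 25 to 30 of the 30 Enpp2-rich cells and in 0 to 11 of the 41 Sox11 cells, so the values hold mostly the difference between classes. Within Enpp2-rich cells the values differed by dataset. In dataset A (14 cells) Cryab (0.55) and Calml4 (0.54) had the highest correlations of the 10, and Car2 (0.08) and Ndufa11 (0.03) were near 0. In dataset B (16 cells) Car2 (0.74) and Ndufa11 (0.64) had the highest, and Cryab was at 0.10 and Calml4 at 0.01. Kcnj13 was negative in both (-0.21 and -0.26), and Chchd10 was at 0.23 and 0.45.

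S100a13, which takes part in the release of Fgf1 and Il1a from cells, was found in 6 Enpp2-rich cells of dataset B. They had 133, 163, 256, 357, 477 and 1465 reads of it. By plate it was in 1 of 2 Enpp2-rich cells of P1, 1 of 4 of P3 and 4 of 10 of PL4. Plate P2 held 0 Enpp2-rich cells. The share in Enpp2-rich cells of dataset B was 37.5% (15.2% to 64.6%). S100a13 was in 0 of 14 Enpp2-rich cells of dataset A, which allows up to 23.2%, and 0 of 41 Sox11 cells, which allows up to 8.60%. S100a1 reads in these 6 cells were, in the same order, 2925, 2879, 1418, 2280, 0 and 5454. The cell with 477 S100a13 reads and no S100a1 read shows S100a13 counts without S100a1 counts. Over all cells, 20.7% of S100a1 cells had S100a13 and 85.7% of S100a13 cells had S100a1. In Enpp2-rich cells of dataset B, S100a1 was found in 5 of the 6 S100a13 cells and in 14 of all 16, so its share was no higher beside S100a13. When every cell was thinned to 500000 reads, the shares of S100a13 at 10 or more reads were the same, 6 of 16 and 0 of 14.

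S100a10 is the light chain that pairs with annexin A2 and carries membrane proteins to the cell surface, and it is unusual in the family in that it does not need calcium. In dataset A it had 581, 628, 710 and 1179 reads in 4 Sox11 cells, and the other 12 had 0 to 2 reads. In dataset B it was detected in 11 of 25 Sox11 cells with 29 to 4299 reads (median 885), and the other 14 had 0 reads. The shares were 25% (7.27% to 52.4%) and 44% (24.4% to 65.1%). None of the 30 Enpp2-rich cells had a read, and a count of 0 among 30 allows up to 11.6%. The detected level had medians of 418 CPM in dataset A and 427 CPM in dataset B, and the ranges overlapped. All 4 plates of dataset B held S100a10 cells, in 5 of 12, 2 of 6, 2 of 3 and 2 of 4 Sox11 cells. Of the 5793 described rows, 105 (1.81%) had 10 or more reads in no Enpp2-rich cell and in 15 or more Sox11 cells, the number of S100a10, by a rule set after the values were seen.

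Sox11 cells of dataset B with and without S100a10 had median totals of 2146427 and 2104862 reads. They had medians of 11 and 10 neuroblast genes there. In dataset A the 4 cells with S100a10 had 12 or 13 neuroblast genes and a median of 19994.5 Sox11 reads, while the 12 without had 1 to 13 (median 8) and a median of 5810.5 Sox11 reads. The dataset A cell with the most S100a10 (1179 reads) also had 12 of 16 choroid plexus genes (8250 CPM), 0.424% of its reads on Enpp2, and 4197 detected genes, the most of the 82 cells. The part of such mixed markers in the S100a10 values was not tested. In dataset B the Sox11 medians lay the other way, at 17288 reads with S100a10 and 21465.5 without. The rows most like S100a10 over the 82 cells, listed by the same rule after its values were seen, began with Tiam2 (0.62), an activator of the small GTPase Rac, Dlx5 (0.60), a homeobox factor of interneurons, and Ncam1 (0.55), a neural adhesion molecule. Within Sox11 cells Tiam2 was at 0.56 in dataset A and 0.47 in dataset B, Dlx5 at 0.32 and 0.59, and Ncam1 at 0.39 and 0.55.

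**Figure D4:**
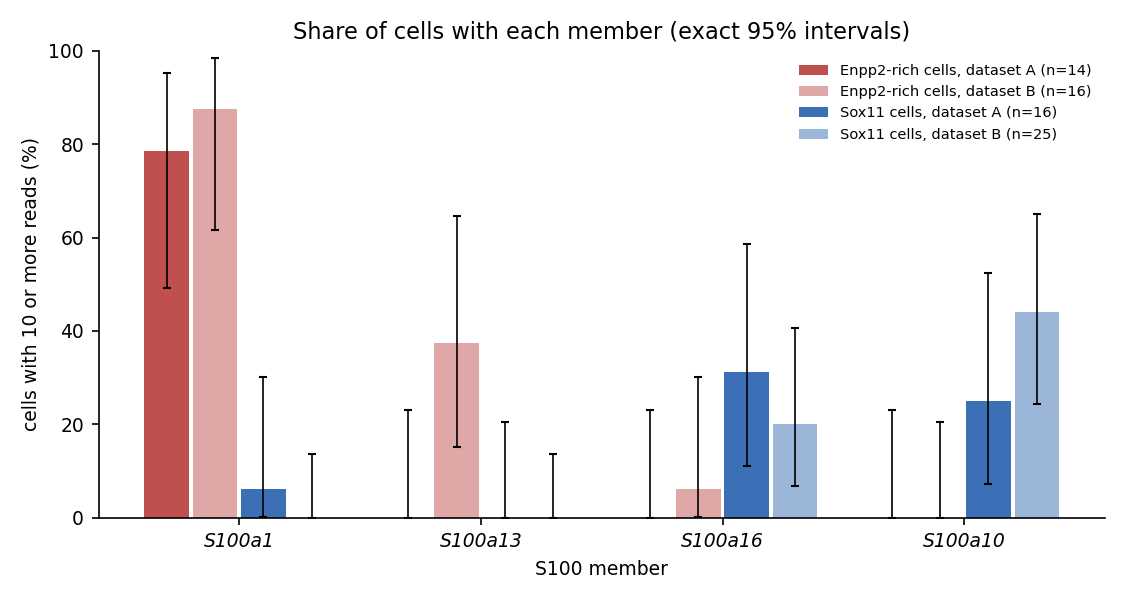
Share of cells with 10 or more reads (percent) of the 4 described members in Enpp2-rich cells (red) and Sox11 cells (blue), dark for dataset A and light for dataset B; error bars are exact 95% binomial intervals. S100a1 is at 78.6% and 87.5% in Enpp2-rich cells, and S100a10 at 25% and 44% in Sox11 cells.

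S100a16, a broadly expressed member, was at 37, 906, 913, 1109 and 2444 reads in 5 Sox11 cells of dataset A and at 677, 924, 1416, 2260 and 2655 reads in 5 of dataset B. The dataset A cell with 913 reads had the highest S100a16 level, 1721 CPM, and held 6 of 13 astroglial genes at a summed 9003 CPM, beside 5 of 15 neuroblast genes at 2380 CPM and 5 of 16 choroid plexus genes. The dataset B cell with 2655 reads also had 12 of 13 microglia genes at 10 or more reads, with a summed level of 209.6 CPM, the highest sum among the Sox11 cells of dataset B, where the median was 6.52 CPM and each of the 13 genes had reads. The part of these other markers in the S100a16 values was not tested. The shares were 31.2% (11% to 58.7%) and 20% (6.83% to 40.7%). In Enpp2-rich cells it was found in 0 of 14 and 1 of 16, and the latter cell, with 696 reads, was the one nearest the Enpp2 rule and also held S100a1 and S100a13. The differences between classes, Enpp2-rich minus Sox11, were -31.2 and -13.8 percentage points, and the second was -7.14 without plate PL4.

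S100a10 and S100a16 shared 3 cells, all of dataset A, which is 20% of S100a10 cells and 25% of S100a16 cells. In dataset B the 11 S100a10 cells and the 5 S100a16 cells were different cells, so that 16 of 25 Sox11 cells held exactly 1 member and 9 held none. Dataset A went the other way, with S100a16 in 3 of its 4 S100a10 cells. The overlap of other rows found in as many cells was not counted, so whether the 2 members avoid each other was not tested. S100a1 and S100a10, the most widely detected members, shared 0 of 82 cells. All 15 S100a10 cells were Sox11 cells and 25 of the 29 S100a1 cells were Enpp2-rich. These classes hold separate cells by rule, so little overlap was possible. Over all cells, 27 held no member at 10 or more reads, 44 held 1, 9 held 2 and 2 held 3.

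**Figure D5:**
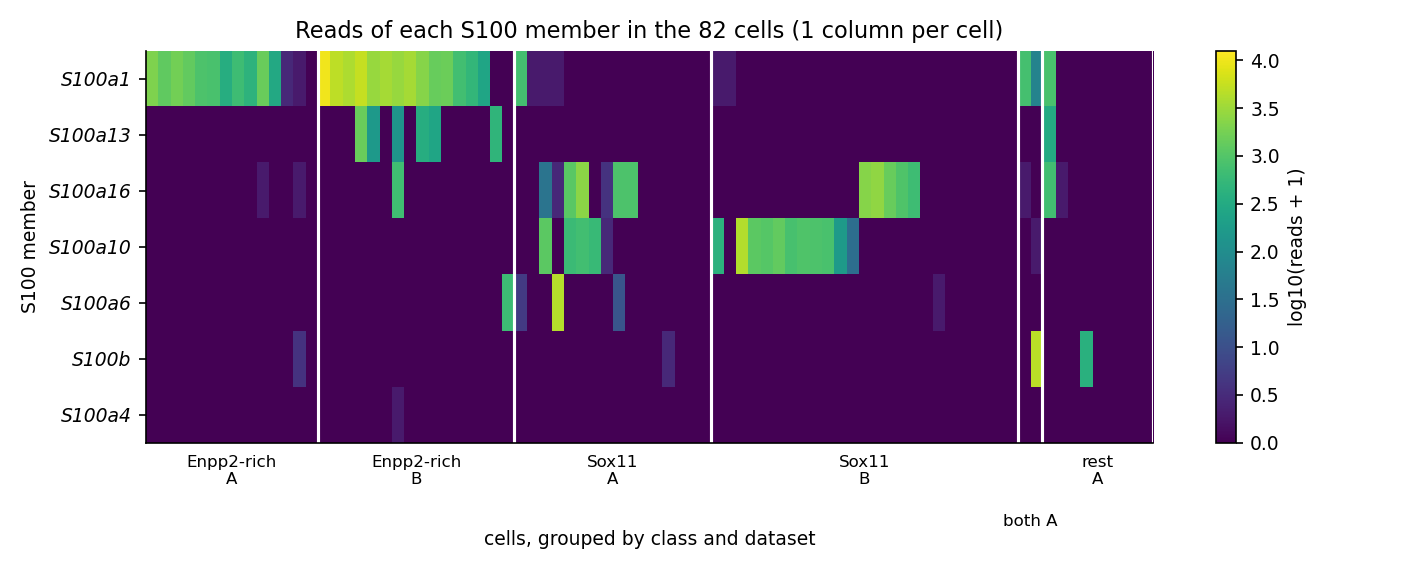
Reads of the 7 members, as log10(reads + 1), in each of the 82 cells (1 column per cell), grouped by class and dataset and ordered within a group by S100a1, S100a10 and S100a16. S100a1 fills most Enpp2-rich columns, and S100a4 has 1 read. In Sox11 cells S100a10 and S100a16 take separate columns in dataset B and share 3 columns in dataset A.

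S100a6 (calcyclin), which binds the Cacybp protein, reached 10 reads in 3 cells. The highest had 4365 reads and lay in dataset A among the Sox11 cells, but with only 20 Sox11 reads, 1 of 15 neuroblast genes and 4 of 13 microglia genes, led by Tyrobp, Csf1r and Cx3cr1. That cell had a summed microglia level of 23595 CPM, and Lyz2, a gene of myeloid cells, took 18467 CPM. Across the Sox11 cells of dataset A the microglia sum ran from 0 to 23595 CPM (median 0), with 9 of the 13 genes, C1qa and P2ry12 among them, at 0 in every cell. Dataset A was the one sorted as CD11b-negative, a gate against microglia. The part of such cells in the S100a6 values was not tested. The other 2 cells had 645 reads (an Enpp2-rich cell of dataset B) and 11 reads (a Sox11 cell of dataset A). No S100a6 cell had 10 or more reads of Cacybp, which was itself found in 19 cells.

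S100b, the astrocyte marker of the family, had 4746 and 395 reads in 2 cells of dataset A, and 2 further cells had 2 and 3 reads. Both S100b cells held 12 of 13 astroglial genes, with Ntsr2 the highest in each. In 4 other cells of the rest, with 7, 9, 10 and 11 astroglial genes, S100b had 0 reads. Their summed astroglial levels of 38782, 38607, 56000 and 42892 CPM were above those of the S100b cells, at 18475 and 22121 CPM. The cell with 4746 reads met both class rules and held 10 of 16 choroid plexus genes as well as 66 reads of S100a1, while the cell with 395 reads was of the rest and held 0 choroid plexus genes. In Enpp2-rich and Sox11 cells S100b was at 10 or more reads in 0 of 30 and 0 of 41, which allows up to 11.6% and 8.60%. Dataset B had 0 S100b reads. S100a4, known from fibroblasts and motile cells, had a single read in 1 Enpp2-rich cell.

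Other genes of S100 biology were counted from 2 lists. Of 35 binding partners and receptors, 17 were described, and 0 were called for either class, against 1.29% and 1.43% of all described rows. Their median differences were -6.25 and 8.50 percentage points in datasets A and B, beside -6.25 and -1.75 over all described rows. Bsg (basigin), a surface glycoprotein and S100 receptor, had the differences nearest to the call, in 14 of 14 and 15 of 16 Enpp2-rich cells against 11 of 16 and 11 of 25 Sox11 cells. Ryr1, Ryr2 and Ryr3, the ryanodine receptors that S100a1 binds in muscle, had 0 reads in every cell. Atp2a2, the calcium pump it binds there, was in 2 of 14 and 5 of 16 Enpp2-rich cells and in 2 of 16 and 2 of 25 Sox11 cells. Anxa5, a calcium-dependent lipid-binding annexin, was in 3 of 14 and 8 of 16 against 1 of 16 and 3 of 25. Anxa2 (annexin A2), which pairs with S100a10, was not among the 17 described partners. Ahnak, another gene of that list, was at 10 or more reads in 0 of the 15 S100a10 cells.

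Of 47 other EF-hand and calcium buffer proteins, 23 were described, 1 was called for Enpp2-rich cells and 0 for Sox11 cells, against 1.29% and 1.43% of all described rows. Their median differences were 9.82 and 9 percentage points in datasets A and B, above the medians of all described rows. The one called was Calml4, in 12 of 14 and 13 of 16 Enpp2-rich cells and in 2 of 16 and 0 of 25 Sox11 cells; Calml4 is also among the choroid plexus genes used above. Ncs1, a neuronal calcium sensor, was in 0 of 14 and 2 of 16 Enpp2-rich cells and in 5 of 16 and 14 of 25 Sox11 cells. Sparc, a secreted matrix protein, went the other way, in 8 of 14 and 7 of 16 Enpp2-rich cells and in 0 of 16 and 2 of 25 Sox11 cells. Both were picked after their values were seen, as the genes that, after Calml4, differed most in each direction by the smaller of their differences in the 2 datasets. Of 95 other genes that the RefSeq table places between the outermost S100a members, 5 had a row and 0 were detected in enough cells to be described.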

How the data were processed

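The deposited values are raw counts of reads, whole numbers whose totals differ from cell to cell. The submitters' processing notes name FastQC 0.12.1, STAR 2.7.10b, featureCounts and Subread 2.1.1. The strand setting and annotation are not given in the sources used here. Per the labels' protocols, reverse transcription used a template-switch oligo and cDNA was preamplified, with no molecular identifiers mentioned, so reads are not independent molecules.

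Members, classes and gene lists were chosen with earlier results of these data known. All 82 cells were kept, and doublets were not called. A gene was detected at 10 or more reads. Counts were scaled to 1000000 per cell (CPM), and described rows had 10 or more reads in at least 5 cells. All members were named, and genes like S100a1 were the 10 with the highest Spearman correlation. Without replicates, no significance test between groups was run. The rule for calling a row was also run on simulated counts, from which no value is given here. Scipy 1.17.1 and pandas 2.3.3 ran under Python 3.11.15, with numpy 2.4.6, and plots used matplotlib 3.10.9. Alternatives covered the read minimum, thinning to 500000 reads, scaling, class rules and plates.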

Additional observations from a re-analysis of the deposited data

Results flagged for a closer look

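The S100a6 differences had opposite signs in the 2 datasets. The share of Enpp2-rich minus that of Sox11 cells was -12.5 percentage points in dataset A, from 0 of 14 and 2 of 16 cells, and 6.25 in dataset B, from 1 of 16 and 0 of 25. The difference between datasets was not tested, and it rests on 3 cells, one of which had 4 of 13 microglia genes and 20 Sox11 reads. Without plate PL4 the dataset B value was 0, and dataset A was at -6.25 with a minimum of 100 reads and at -7.14 with Sox11 at 100 or more reads. Newcombe intervals of the differences ran from -36.0 to 10.8 in dataset A and from -8.03 to 28.3 in dataset B. They cover counting error over cells only and are no test between classes.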

How the results depend on the processing

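The S100a1 difference (72.3 percentage points in dataset A, 87.5 in B) kept its direction in each alternative run. It ranged from 64.6, with cells of both classes counted in both, to 78.6 in dataset A, and from 79.5, at 1 read, to 100 in dataset B. The last was without plate PL4, which held 10 of its 16 Enpp2-rich cells, both cells without S100a1 among them. S100a1 remained the 1 member called for Enpp2-rich cells throughout. The 0 members called for Sox11 cells became 1 at 20 percentage points, chosen after the data were seen. Of 156 alternative values of the other members' differences, all stayed within the interval of the main value, but these intervals are wide. Among those that moved by over 1.5 times were S100a16 in dataset B, from -13.8 to -7.14 without plate PL4, and S100a6, from -12.5 to -6.25 at 100 reads in dataset A and from 6.25 to 0 without plate PL4 in dataset B; S100b and S100a4, at 0, also shifted by up to 6.67. Mean levels moved by over 1.5 times in 18 alternative values and by less in 66, most of the former on leaving out the cell with the most reads. S100a13 in Enpp2-rich cells of dataset B was at 77.3 CPM, and at 46.4 CPM without its highest cell, and S100a1 in those of dataset A was 551 CPM with Ttr and Enpp2 left out of the total. No paired analysis was possible because each labelled group is 1 sample, to which cells could not be mapped. Plates of dataset B were compared class against class, as shares without a test.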
